A study of Drosophila melanogaster with 2 samples.

Results

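The 36 genes examined here are the maternal, gap, pair-rule and segment polarity genes that divide the Drosophila embryo into segments, taken by name from the 13968 protein-coding genes of the annotation. They comprised 3 maternal genes, 6 gap genes, 4 genes grouped here as head gap genes, cnc among them, and 7 pair-rule genes. The others were 5 segment polarity transcription factors, 6 genes of the Wingless (Wg) pathway and 5 genes of the Hedgehog (Hh) pathway. The measurement was chromatin immunoprecipitation sequencing (ChIP-seq) of CG11723, and the question was where the tagged protein was recovered around these genes. The single group consisted of embryos of both sexes, collected 0 to 16 h after laying, from a strain that carries an inserted CG11723 transgene with GFP at the C-terminus. Chromatin was sheared by sonication to 200-800 bp and precipitated with an antibody to GFP, and the 2 samples were numbered as biological replicates 1 and 3. Every sample carried the transgene, and no input, untagged or other control sample was analysed here, so the values describe 1 condition. Whole embryos were used, so cells in which a gene is active and cells in which it is silent contributed to the same value. The collection also spans stages before, during and after the segmentation genes act.

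Segmentation proceeds as a cascade. Maternal products set up gradients along the long axis of the egg, gap genes read them in broad domains, and pair-rule genes turn these domains into periodic stripes. Segment polarity genes then fix cell fates within each segment, largely through the Wg and Hh signalling pathways. Many of the early genes are small transcription units with arrays of enhancers nearby, and several of the signalling genes are long and are used in most tissues.

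4 deposited lists of regions were used. The final list, derived by the irreproducible discovery rate (IDR) and called the IDR list, held 3869 regions. The list from pooled replicates held 30000 regions, and each replicate had a list of its own with 30000 regions. The submitters named these longer lists as peaks and background, the input for IDR, so they also hold background regions. The IDR list was exactly the 3869 pooled regions of highest signal, where signal is the authors' own enrichment value for a region, on a scale that was not stated, so signals of different lists are set side by side and compared by rank. A rank is the place of a region by signal within 1 list, with 1 the highest, and the same number of regions from the top of each replicate list is called its top regions. Signal ran from 88.8 to 1646 in the IDR list, with a median of 144. It ran from 12.49 to 892 in replicate 1 and from 10.4 to 820 in replicate 3. Read numbers are not in the lists, so the sequencing depth of each sample is unknown. A region was assigned by its summit. It counted as at a gene's transcription start site (TSS) within 500 bp of any annotated start, and the gene with 10 kb on each side is called its territory.

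The segmentation genes carried regions of the IDR list about as often as other protein-coding genes did. A region lay at a TSS of 7 of the 36 genes, 19.4% (exact Clopper-Pearson 95% interval 8.19 to 36.02%), against 15% of all protein-coding genes. These 7 were nos, cnc, hry, ci, nkd, pan and sgg. A region lay in the gene body or at a TSS of 10 genes, 27.8% (14.2 to 45.2%), against 19.2%, with cad, ptc and fz added. A region lay within 10 kb of 16 genes, 44.4% (27.9 to 61.9%), against 52.2%, with bcd, oc, btd, arm, smo and dsh added. The background percentage lay inside each interval, and these intervals cover counting error only. The remaining 20 genes had no IDR region within 10 kb, and the nearest IDR summit was 10.1 kb (hh) to 65.5 kb (en) from the gene, with a median of 18.6 kb.

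**Figure D1:**
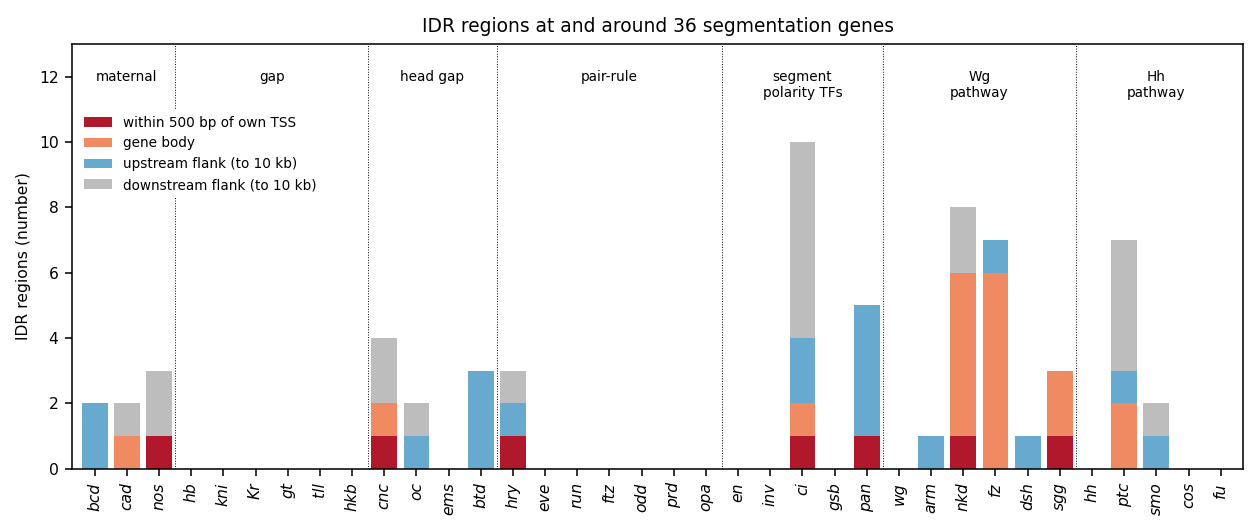
Number of IDR regions (vertical axis) at and around each of the 36 segmentation genes (horizontal axis, by role), divided by where the summit lies. ci has 10 regions, nkd 8, fz and ptc 7 each and pan 5, while 20 genes, the 6 gap genes among them, have none.

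The genes differ from the average coding gene in size and surroundings. Their median length was 4685 bp against 2164.5 bp for all protein-coding genes. The median number of other coding genes with a TSS in the territory was 1, against 5 in the same window around all coding genes. The 5 members over 40 kb (cnc, nkd, pan, sgg and fz, 41132 to 94297 bp) held 18 of the 25 IDR regions found in gene bodies or at own starts. The part of gene length and gene density in the counts was not tested.

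In the longer pooled list, which also holds background regions, segmentation genes had a region at a TSS more often than all coding genes did. A pooled region lay at a TSS of 26 of the 36 genes, 72.2% (54.8 to 85.8%), against 37.1% of coding genes. It lay in the body or at a TSS of 28 genes, 77.8% (60.9 to 89.9%), against 42.4%. Within 10 kb it lay at 34 genes, 94.4% (81.3 to 99.3%), against 84.0%, and only gt and eve had none. The 19 genes with a pooled but no IDR region at a TSS had their strongest such region at ranks 3931 to 24568, with a median of 10880. Over genes with a pooled region at a TSS, the median rank of the strongest was 8419.5 for segmentation genes and 5386 for coding genes. The gene nearest to the end of the IDR list on the inside was pan, whose strongest start region ranked 3646, and on the outside bcd, at rank 3931. In total, 422 pooled regions lay in the territories and 62 of them (14.7%, 11.5 to 18.4%) were IDR regions, against 12.9% of the whole pooled list.

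**Figure D2:**
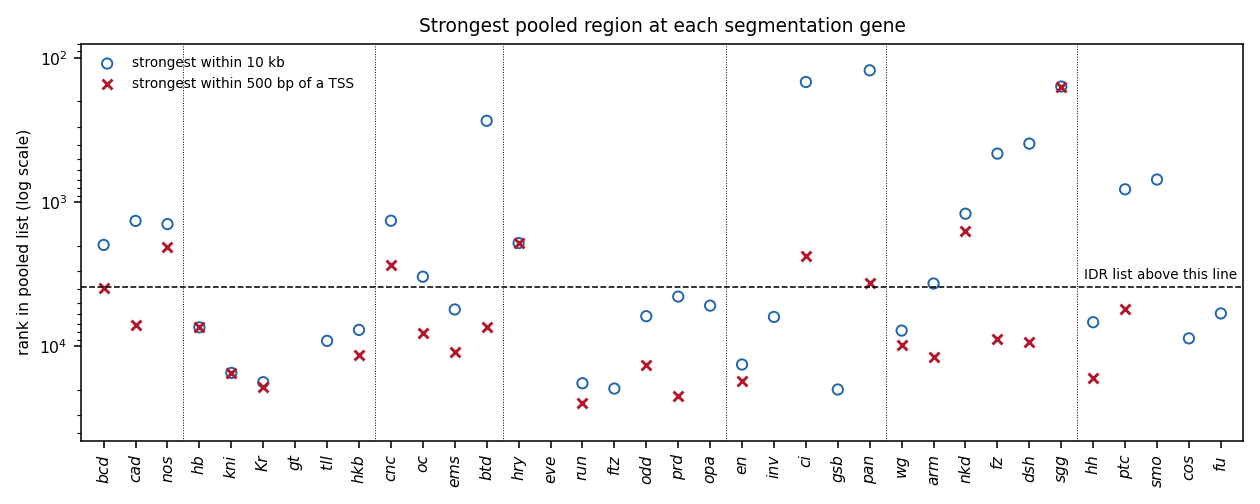
Rank in the pooled list (log axis, strongest at the top) of the strongest region within 10 kb (circles) and within 500 bp of a TSS (crosses) for each gene. sgg at rank 158, nkd at 1573 and hry at 1921 are the 3 genes with the strongest start regions, and gt and eve have no symbol.

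The larger share at starts was seen in the full list of replicate 1 and not in that of replicate 3. In replicate 1, 28 of the 36 genes (77.8%, 60.9 to 89.9%) had a region at a TSS, against 39.7% of coding genes. In replicate 3, 14 genes (38.9%, 23.1 to 56.5%) had one, against 40.7% of coding genes. All 14 of the latter also had one in replicate 1: bcd, nos, kni, hkb, cnc, oc, btd, hry, prd, wg, ptc, ci, nkd and sgg. The share with a region in both replicates was 38.9%, against 26.3% of coding genes. A further 14 genes (38.9%) had one in replicate 1 alone, against 13.4% of coding genes: hb, tll, ems, run, odd, opa, en, inv, hh, arm, pan, fu, fz and dsh. No segmentation gene had one in replicate 3 alone, against 14.4% of coding genes. Only the 8 genes without one in replicate 1 could fall there, so this 0 follows in large part from the replicate 1 count. The count of 0 of 36 allows a share of up to 8.33% when 3 counts are taken as the limit of a count of 0. For the same reason, that limit is not read against the 14.4%. The 8 genes with none in either (22.2%, against 45.9% of coding genes) were cad, Kr, gt, eve, ftz, gsb, smo and cos. Most of these regions were weak in replicate 1 as well. The one at hb ranked 5970 with a signal of 43.9, that at odd ranked 5131 with 48.4, and that at tll ranked 26528 with 14.2. The difference between the replicates was noticed in these data, and its cause was not tested.

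**Figure D3:**
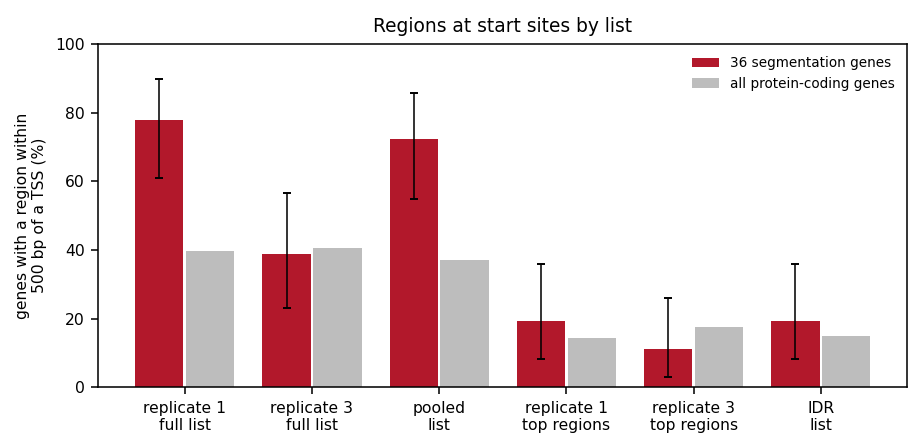
Percentage of the 36 segmentation genes and of all 13968 protein-coding genes (bars, from 0) with a region within 500 bp of a TSS in the full list and the top regions of each replicate, the pooled list and the IDR list. Error bars are exact 95% intervals over the 36 genes. In the full list of replicate 1 the share is 77.8% against 39.7%, and in that of replicate 3 it is 38.9% against 40.7%.

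In the top regions, replicate 1 again had more of the genes at a TSS than replicate 3, 7 against 4. The top regions of replicate 1 lay at a TSS of 7 genes (19.4%, against 14.3% of coding genes), in the body or at a TSS of 10 (27.8%, against 18.1%) and within 10 kb of 16 (44.4%, against 51.0%). Those of replicate 3 lay at a TSS of 4 genes (11.1%, against 17.5%), in the body or at a TSS of 7 (19.4%, against 21.8%) and within 10 kb of 17 (47.2%, against 56.2%). At a TSS and in the body, the genes were thus above the coding background in replicate 1 and below it in replicate 3, with the background inside each exact interval.

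All 3 maternal genes had IDR regions within 10 kb, 7 in all, where 52.2% of all coding genes had one. nos, an RNA-binding translational repressor that acts at the posterior pole, had a region at 3R:19156667-19157106 with a pooled signal of 139 (rank 2044). Its signal was 62.03 in replicate 1 and 72.8 in replicate 3, at ranks 3438 and 1766, so it was among the top regions of both. The summit lay 351 bp upstream of the nos start and 75 bp from that of CG11779, so the CG11779 start was the nearer one. Another 2 regions lay downstream of nos. One of them was at the starts of CG42359 and Nsun5 and had a pooled signal of 177, and the other was in an intron of sqz, a zinc finger gene, with 112. cad, a homeodomain gene of the posterior, had an intronic region at 2L:20780845-20781088 with a pooled signal of 183, and 113 and 70.0 in replicates 1 and 3. Its other region lay at the start of Pomp, beyond the 3′ end of cad, and was listed in replicate 1 alone. bcd, the homeodomain morphogen of the anterior, had no IDR region of its own, but 2 regions 3472 and 3709 bp upstream lay at the starts of Ama and lncRNA:CR45593. Its own start region, with a pooled signal of 87.5, ranked 4361 in replicate 1 and 4808 in replicate 3.

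None of the 6 gap genes had an IDR region within 10 kb, where 52.2% of coding genes did. At a TSS, where they also had none, the coding share was 15%. With 6 genes, the limit used for a count of 0 is 3 of the 6. Other coding genes with a TSS in the territory numbered 3 at hkb, 1 each at hb and gt, and 0 at kni, Kr and tll. The median around all coding genes was 5, and the part of such neighbours was not tested. The gap gene territories covered 140.2 kb and held 30 pooled regions, none of them ranked above 7373. That rank belonged to the region at the start of hb, a zinc finger gene, with a pooled signal of 53.97. hb had this region in replicate 1 (signal 43.9) and none at a TSS in replicate 3. The strongest pooled region of hkb, a zinc finger gene of the termini, ranked 7680, and that of tll, a nuclear receptor of the termini, 9150. kni, an orphan nuclear receptor, followed at 15258 and Kr, a zinc finger repressor, at 17688. gt, a basic leucine zipper repressor, had no pooled region within 10 kb, with 1 weak region in replicate 1 (rank 26889) and 2 in replicate 3 (best rank 23353). The nearest IDR summits were 10.9 kb from hkb, 14.3 kb from hb, 16.2 kb from kni, 30.4 kb from gt, 34.9 kb from tll and 59.3 kb from Kr.

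Among the 4 genes grouped here as head gap genes, cnc, oc and btd had 9 IDR regions within 10 kb together. ems had none, and the coding share was 52.2%. cnc, a basic leucine zipper gene of the head, has 10 annotated starts over 41132 bp, and its start region at 3R:23189993-23190156 lay 321 bp downstream of an internal one. The pooled signal was 113 (rank 2727), with 42.7 in replicate 1 and 68.5 in replicate 3, and it ranked higher in replicate 3 (1944) than in replicate 1 (6251). A second cnc intron region (pooled signal 109.5) was not listed in replicate 3. The strongest region of the cnc territory (pooled signal 183, rank 1345) lay 9967 bp beyond the 3′ end of cnc, in an intron within CG46310 and Irk1. Another lay there 8957 bp beyond the 3′ end, with a pooled signal of 105.5. btd, an Sp-type zinc finger gene, had 3 upstream regions, all at starts of other transcripts. The strongest lay 6470 bp upstream, 473 bp from the start of lncRNA:CR42657, with a pooled signal of 418 (rank 273) and signals of 261 and 154 in replicates 1 and 3. The other 2 lay at the start of nej, which encodes the acetyltransferase CBP. oc, the homeodomain gene also known as orthodenticle, had 1 weak intergenic region on each side, with pooled signals of 99.4 and 89.6. The homeodomain gene ems had its nearest IDR summit at 10.3 kb, just beyond the window, and a start region in replicate 1 only, with a signal of 36.5.

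Of the 7 pair-rule genes, hry alone had IDR regions within 10 kb, where 52.2% of all coding genes had one. hry (hairy) encodes a basic helix-loop-helix repressor. Its region at 3L:8675505-8675944 had its summit 34 bp upstream of the start. The pooled signal was 145 (rank 1921), with 118 in replicate 1 and 27.1 in replicate 3, so replicate 1 held it far higher in its list (rank 1111) than replicate 3 (rank 6256). The flanking intergenic regions of hry, 7461 bp upstream and 4739 bp beyond the 3′ end, had pooled signals of 96.3 and 107. In the other 6 genes, the strongest pooled regions within 10 kb ranked 4515 at prd (paired-domain), 5214 at opa (Zic-type zinc finger), 6171 at odd (zinc finger), 17998 at run (Runt domain) and 19592 at ftz (homeodomain). eve, a homeodomain repressor, had no region within 10 kb in the pooled list or in replicate 3, and 4 in replicate 1, the best at rank 16381.

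The summit window of hry is shown with those of the other own-start regions that can be printed, cnc, nkd and sgg, to let the sequences under the start signals be compared. Each is 101 bp centred on the summit, on the plus strand, from the RefSeq Release 6 assembly. Capitals mark matches on either strand to CAGTG (a frequent word at these summits), TCGATA (the core of the DREF element), GAGAG (the GAGA factor element), AGGNGGC (a CTCF core), TATAAA (the TATA box) or CAGGTAG (a Zelda site).
cnc 3R:23190048-23190148: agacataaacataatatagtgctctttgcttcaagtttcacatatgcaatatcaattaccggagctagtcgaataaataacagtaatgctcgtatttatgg
hry 3L:8675675-8675775: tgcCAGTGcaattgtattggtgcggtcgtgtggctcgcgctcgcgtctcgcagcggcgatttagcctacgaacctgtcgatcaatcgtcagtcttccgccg
nkd 3L:19045520-19045620: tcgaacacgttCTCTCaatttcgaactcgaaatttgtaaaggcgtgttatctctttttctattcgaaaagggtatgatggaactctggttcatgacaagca
sgg X:2646407-2646507: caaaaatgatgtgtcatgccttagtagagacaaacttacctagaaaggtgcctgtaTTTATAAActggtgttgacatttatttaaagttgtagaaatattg
hry has a CAGTG match, nkd a GAGAG match and sgg a TATAAA match, while cnc has none, so no marked motif is shared among these 4 windows. Of the own-start windows not printed, that of nos has a CAGTG match, as hry does. That of pan has a TATAAA match, as sgg does, and that of ci has none of the marked motifs.

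Of the 5 segment polarity transcription factors, ci and pan (40%) had IDR regions in their territories, against 52.2% of all coding genes. The same 2 genes carried one at their own starts, where the coding share was 15%. ci, the Gli-type zinc finger effector of Hh signalling, had 10 IDR regions within 10 kb, and pan, the TCF protein that carries the Wg signal to its targets, had 5. Both genes lie on chromosome 4 and share 1 of these regions. en and inv, paralogous homeodomain genes, and gsb, a paired-domain gene, had none, with nearest IDR summits at 65.5, 23.7 and 42.1 kb. The share among coding genes of chromosome 4 was not computed, so the part of the chromosome was not tested. inv, a 35231 bp gene, held 9 regions in its body or at its starts in each of the pooled and replicate lists. The strongest of them ranked 6246 in the pooled list, 5216 in replicate 1 and 4098 in replicate 3.

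At ci, the start region at 4:56420-56549 had a pooled signal of 126, with 111 in replicate 1 and 21.6 in replicate 3. Its summit lay 118 bp upstream of the inner of the ci starts and 48 bp from the start of asRNA:CR43957, an antisense RNA. The strongest region of the ci territory, with a pooled signal of 541.5 (rank 147) and signals of 351.5 and 192, lay 73 bp from the start of PlexB, a plexin receptor gene, beyond the 3′ end of ci. At pan, the start region at 4:69228-69667 had the lowest pooled signal of the 7, 92.5, with 81.3 in replicate 1, and it was not listed in replicate 3. A region 707 bp upstream of pan, at 4:68423-68877, was stronger, with a pooled signal of 358 and 285 and 70.0 in replicates 1 and 3. The highest signal in any territory, 579.8 (rank 122), lay 2062 bp upstream of pan and 57 bp from the start of RpS3A, a ribosomal protein gene. That region had 395 in replicate 1 and 210 in replicate 3. The windows of the regions at RpS3A and PlexB, the strongest of all 62, and of the one shared by ci and pan are given in the same form.
RpS3A 4:67214-67314: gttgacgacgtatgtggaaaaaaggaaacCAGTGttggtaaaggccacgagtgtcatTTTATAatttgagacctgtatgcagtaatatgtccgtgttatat
PlexB 4:43801-43901: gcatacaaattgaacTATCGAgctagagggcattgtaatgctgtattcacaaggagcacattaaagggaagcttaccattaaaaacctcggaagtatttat
ci and pan 4:63508-63608: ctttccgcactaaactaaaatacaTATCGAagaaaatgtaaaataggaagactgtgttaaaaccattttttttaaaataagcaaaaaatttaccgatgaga
The RpS3A window holds CAGTG and TATAAA matches, and the other 2 windows each hold a TCGATA match.

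5 of the 6 Wg pathway genes had IDR regions within 10 kb, 20 in all, and wg itself had none. The share of all coding genes was 52.2%. Most of the 20 lay in the territories of nkd (8), fz (7) and sgg (3), each over 40 kb long. wg, the Wnt ligand, had its strongest pooled region at rank 7764 and its nearest IDR summit at 11.1 kb. Its start region had a signal of 56.9 in replicate 1 (rank 3959) and 11.7 in replicate 3 (rank 24684). sgg, the GSK3 kinase that acts against Wg signalling, had the strongest own-start region of all, at X:2646112-2646654. Its pooled signal was 523 (rank 158), with 340 in replicate 1 (rank 98) and 183 in replicate 3 (rank 328). The summit lay 180 bp upstream of an internal start, 12505 bp from the 5′ end of a gene with 11 annotated starts. nkd, an antagonist induced by Wg signalling, had 8 regions, 6 of them in the body or at its start. Its start region at 3L:19045474-19045681, 121 bp upstream, had a pooled signal of 165, with 105 and 59.8 in the replicates. fz, a Wg receptor and the longest of the genes at 94297 bp, had 6 intronic regions and 1 upstream, and none at its start. The intronic region at 3L:14303915-14304193 had a pooled signal of 327, with 224 in replicate 1 and 96.0 in replicate 3. The region 1740 bp upstream at 3L:14272399-14272799 had 308, with 186 and 124. arm, the fly β-catenin, had 1 region at the starts of Edem1 and mip130, 7382 bp upstream. dsh, which relays the signal from the receptor, had 1 region 4325 bp upstream in an intron of CG1737, with a pooled signal of 349.5 and signals of 180 in replicate 1 (rank 494) and 177 in replicate 3 (rank 349). The windows of the 2 strongest fz regions, which are distal to any start, are as follows.
fz intron 3L:14304014-14304114: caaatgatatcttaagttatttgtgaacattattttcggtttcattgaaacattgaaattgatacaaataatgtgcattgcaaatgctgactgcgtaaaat
fz upstream 3L:14272553-14272653: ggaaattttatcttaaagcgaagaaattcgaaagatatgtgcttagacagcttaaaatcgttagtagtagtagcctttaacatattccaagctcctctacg
Neither window holds a match to the 6 marked motifs.

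Of the 5 Hh pathway genes, ptc had 7 IDR regions within 10 kb, smo had 2, and hh, cos and fu had none. None of the 5 had an IDR region at its own start. The shares of all coding genes were 52.2% within 10 kb and 15% at a TSS. ptc, the Hh receptor, lies on 2R and had 2 intronic regions, 1 upstream and 4 downstream, the last all in introns of Acsl, a fatty acid CoA ligase gene. The strongest of these had a pooled signal of 239, with 142 in replicate 1 and 104 in replicate 3. The start region of ptc ranked 5467 in the pooled list, with signals of 62.5 in replicate 1 and 22.8 in replicate 3. smo, the membrane protein that ptc holds in check, had 1 region 9945 bp upstream at the start of CG17075, with a pooled signal of 258.5. That region ranked higher in replicate 3 (428, signal 161.5) than in replicate 1 (1459, signal 101.5). The other smo region was at the start of CG3625. hh, the ligand, had 4 pooled regions, the best at rank 6794, and fu, a kinase of the pathway, had 3, the best at rank 5906. cos, a kinesin-like scaffold, had 6 with the best at rank 8791.

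By role, the 20 patterning genes upstream of segment polarity (maternal, gap, head gap and pair-rule, median length 3211 bp) had an IDR region at a TSS in 3 cases (15%), in the body or at a TSS in 4 (20%) and within 10 kb in 7 (35%). The 5 segment polarity transcription factors (median length 9332 bp) had one in 2 cases (40%) in each window, ci and pan. The 11 Wg and Hh pathway genes (median length 9246 bp) had one in 2 (18.2%), 4 (36.4%) and 7 cases (63.6%). The shares of all coding genes were 15%, 19.2% and 52.2%. The part of gene length in these shares was not tested.

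**Figure D4:**
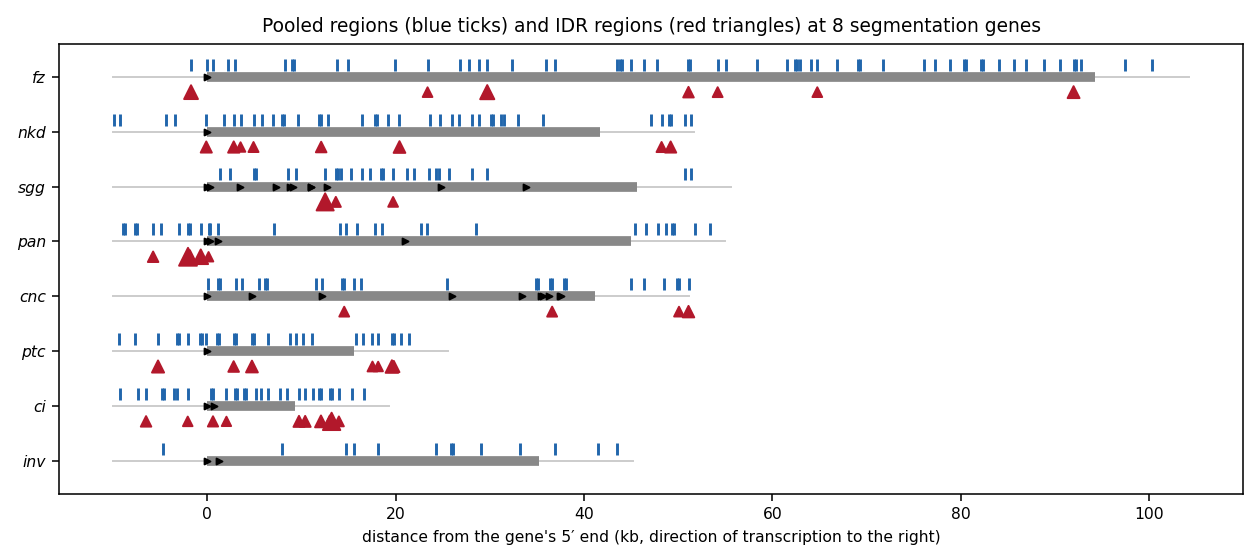
Maps of 8 segmentation genes to scale, with distance from the 5′ end in kb (horizontal axis), gene bodies as grey bars, starts as black arrowheads, pooled regions as blue ticks and IDR regions as red triangles whose size grows with signal. fz, nkd, sgg and cnc hold pooled regions along most of the body, the strongest pan and ci regions lie outside the genes, and inv has 13 pooled regions in its territory and no IDR region.

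The 62 IDR regions of the territories, each counted by its own summit, made up 1.60% of the IDR list on 0.890% of the length of the arms. Some overlapped or shared an interval, and 59 remained when 1 region per block of overlapping regions was kept. The 62 amount to 5.21 regions per 100 kb, against 2.89 along the arms as a whole. In the pooled list the density was 35.4 against 22.4 per 100 kb. Arm lengths include stretches far from any gene, whereas territories are built around genes. The density around all coding genes was not computed. These contrasts, and those by chromosome below, thus cannot be read as particular to segmentation genes. Median signal was 141 (88.9 to 580) in the territories and 144 in the whole IDR list. Of the 62, 11 ranked within the top 1000, where 1000 of all 3869 IDR regions rank by definition. Only 7 of the 62 (11.3%) lay at the start of the segmentation gene itself. A further 18 lay in gene bodies, 17 in upstream flanks and 20 in downstream flanks. By position of the summit, 27 (43.5%) were intronic, against 33.9% of the IDR list, and 24 (38.7%) were within 500 bp of some TSS, against 50.4%. 10 were intergenic (16.1%, against 13.1%) and 1 lay in a non-coding exon. None lay in a UTR or a coding exon, where the IDR list had 1.19% and 0.388%, and 0 of 62 allows a share of up to 4.84% by the limit of 3 counts. Of the 24 at a TSS, 17 were at the start of another gene only.

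The density was carried in part by chromosome 4. The territories of ci and pan, 86.6 kb together, held 14 of the 62 regions, or 16.2 per 100 kb, against 8.75 along chromosome 4. On the other arms the territories held 4.35 per 100 kb, against 2.83. The top regions of both replicates held 7 of these 14, those of replicate 1 alone held the other 7, and none was in those of replicate 3 alone. For all 118 IDR regions of chromosome 4 these numbers were 73, 42 and 3.

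Of all 62 regions, 35 (56.5%) overlapped a top region in each replicate, 20 (32.3%) did so only in replicate 1 and 7 (11.3%) only in replicate 3. In the whole IDR list the same shares were 59.9%, 20.03% and 17.7%. In the full lists, 58 of the 62 (93.55%) overlapped a region of both replicates, as did 3613 of all 3869 IDR regions. The other 4 were not in the list of replicate 3: the Pomp region beside cad, the cnc intron region, the ci region 2090 bp upstream and the pan start. Spearman's rho between the replicate signals was 0.391 over the 58, against 0.483 over 3613 IDR regions. This is a description across regions, which are not independent samples, and some neighbouring regions matched the same replicate region.

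**Figure D5:**
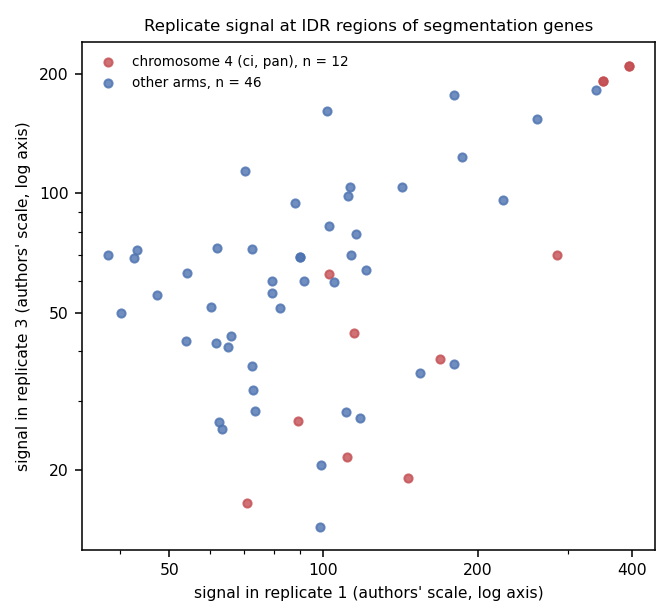
Signal in replicate 1 (horizontal, log axis) against replicate 3 (vertical, log axis) for the 58 IDR regions of segmentation gene territories found in both lists, with chromosome 4 in red (n = 12) and other arms in blue (n = 46). The points spread widely, and several chromosome 4 regions, such as that at the ci start (111 and 21.6), lie low in replicate 3.

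The summit windows were AT-rich. Mean GC content was 35.5% ± 7.73 (SD, n = 62 regions) in the 101 bp at the summits and 39.7% ± 10.9 in windows centred 500 bp away, against 36.2% and 42.2% for all IDR regions. Motifs were searched on both strands in the same windows. CAGTG was in 15 of the 62 summit windows (24.2%), against 8 of the shifted windows and 21.8% of all IDR summits. The longer ACAGTGG and CACAGTG were each in 1 summit window (1.61%) and 2 shifted windows, against 3.23% and 3.00% of IDR summits. CTATCGA was in 2 summit windows (3.23%) and 0 shifted windows, against 2.585% of IDR summits. TCGATA was in 5 (8.07%), against 3 shifted windows and 6.41% of IDR summits, and its palindromic form TATCGATA in 1. GAGAG, the GAGA factor element, was in 9 (14.5%), against 10 and 11.9%. TATAAA was in 9 (14.5%), against 17 shifted windows and 19.2% of IDR summits, so here the shifted windows held more. Over all IDR regions the order was the opposite, with TATAAA in 12.3% of shifted windows. Among motifs of the segmentation cascade, TAATCC, a site of Bcd, was in 3 summit windows (4.84%) and 2 shifted ones, against 2.53% of IDR summits. TTTATN, a site of Cad, was in 33 (53.2%) and 35, against 51.6% of IDR summits and 38.3% of the shifted windows of all IDR regions. By their letters, every TATAAA match is also a TTTATN match and every CTATCGA match a TCGATA match, so these counts overlap. In comparison windows 500 bp towards higher coordinates, the summit and shifted order changed for GAGAG (8 shifted windows), TTTATN (29) and ACAGTGG (0). TCGATA (5) and CACAGTG (1) were then level with the summits. CAGTG (9) and TATAAA (12) kept their order. CAGGTAG, a site of the early activator Zelda, was in none of the 62 summit windows, none of the shifted windows and 1 of those towards higher coordinates, and in 0.439% of IDR summits. AGGNGGC was in none of the summit windows and in 2 shifted windows. Over all IDR regions it was in 2.20% of summits and 4.68% of shifted windows. Short motifs occur often by base composition alone, and a match is a description of the letters and not a binding site.

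A wider list of 49 genes was drawn up around the same cascade and pathways, with earlier results of these data known. It was not limited to them and includes, for example, Trl, the GAGA factor. These genes had an IDR region at a TSS in 12 cases (24.5%), against 15% of all coding genes. A region lay in the body or at a TSS in 17 (34.7%, against 19.2%) and within 10 kb in 38 (77.6%, against 52.2%). A pooled region lay at a TSS of 33 of them (67.3%), against 37.1%. Their lengths and surroundings were not matched to the coding background. The 12 with an IDR region at a start were the maternal genes stau and brat, the odd-skipped relative bowl, and the Wg pathway genes arr, Apc, Apc2, wls, gro and lgs. The others were dlp, a glypican of Hh and Wg transport, slmb, an F-box protein that targets ci and arm, and Trl, the GAGA factor. The highest of the start signals were 400 at gro, a co-repressor of hry and other repressors, 332 at bowl and 252.5 at Trl, and the lowest was 89.0 at brat.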

How the data were processed

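The submitters' file notes say that the lists came from the alignments of replicate 1, of replicate 3 and of the pool, each against a control, and that IDR over them gave the final list. The authors deposited a signal value for each region without its scale. It served here for ranks and levels inside 1 list and not between lists. The sources used here do not give the aligner, the peak caller, the IDR threshold or the sequencing depth. Of the deposited lists, the 4 on dm6 were used. Those on dm3 were not, and no coordinates were converted.

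Summits, counted from 1 on dm6, were placed on Ensembl release 115 gene models (18277 genes, 13968 protein-coding), in which nos is named nanos. Bases were read from the RefSeq Release 6 genome, and windows with more than 30 UTR bases or on 2R are not printed. A summit in several classes was put in the order promoter, coding exon, UTR, non-coding exon, intron, intergenic. Regions of different lists were matched by an overlap of at least 1 bp. Shares carry exact Clopper-Pearson 95% intervals, and the limit given for a count of 0 is 3 counts over the total. No test between groups was possible, and genes and regions are not replicates, so counts stand beside the same count over all protein-coding genes. The members, the wider list and the motifs were chosen with earlier results of these data known. Every member is named. Other genes are named where they have a TSS near an IDR region of a territory, or as wider-list genes with an IDR region at a TSS. Assignment was tested on simulated regions. Python 3.11.15, pandas 2.3.3, numpy 2.4.6 and scipy 1.17.1 were used.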

Additional observations from a re-analysis of the deposited data

How the results depend on the processing

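No paired analysis was possible because there is 1 group. Taking the upper 1934 IDR regions left 3 genes with a region at a TSS (8.97% of coding genes), 6 in the body or at a TSS (11.9%) and 28 regions in the territories. A window of 20 kb gave 27 genes (69.5% of coding genes), and 14 had a region within 5 kb (38.6%). With 1 replicate left out, taking the top regions of the other, 4 to 7 genes had a region at a TSS, 7 to 10 in the body or at a TSS and 16 to 17 within 10 kb, with 48 to 65 regions in the territories. Taking the top 1000 regions of each replicate, in place of 3869, left 9 regions in both. Against coding genes with a pooled region in the same window, the background was 40.3% (TSS), 45.3% (body or TSS) and 62.1% (10 kb), and the segmentation genes under the same condition had 7 of 26 (26.9%), 10 of 28 (35.7%) and 16 of 34 (47.1%). Against genes of every biotype it was 12.8%, 16.4% and 49.8%. Alternatives chosen after seeing the data were applied to starts in the full replicate lists. A 200 bp window gave 21 genes in replicate 1 (30.6% of coding genes) and 7 in replicate 3 (26.8%), a 1000 bp window 30 and 17 (44.6% and 50.5%), and the 15000 regions of highest signal of each list 23 and 10 (32.1% and 31.5%). Unknown depth limits any reading of a region missing from 1 list.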

Other observations

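Some strong regions of a single replicate had no counterpart in the pooled list. Of the 3869 top regions of replicate 1, 99 (2.56%) overlapped no pooled region, and 55 of these overlapped none in the list of replicate 3 either. Of the top regions of replicate 3, 286 (7.39%) overlapped no pooled region, and 232 of these none in replicate 1. In the segmentation gene territories there were 3, and none of the 3 overlapped a region of the other replicate. At cos, replicate 1 had a region of rank 1472 (signal 101), 303 bp outside the gene, and replicate 3 had a different one of rank 2332 (signal 59.6), 8872 bp outside it. At dsh, replicate 1 had a region of rank 2685 (signal 71.6), 504 bp outside the gene. The cause was not tested.

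Neighbouring IDR summits kept a minimum distance. Of 3863 neighbouring pairs, none was closer than 199 bp, and 208 were 190 to 210 bp apart. In the segmentation gene territories 4 of 56 pairs were 190 to 210 bp apart, among them both PlexB summits beside ci and both RpS3A summits beside pan.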
